A study of Rattus norvegicus with 6 samples.

Results

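Rat miRNAs better known from liver, gut and endocrine tissue than from the eye, miR-122, miR-192, miR-194 and miR-375, were followed through small RNA libraries of the lens capsule. The members were all rat names of miR-122, miR-192, miR-194, miR-215 and miR-375, both arms of each hairpin, which gave 8 of the 910 names in the count table, 763 of them rat. The rows analysed here held no name of miR-215, so only its sequence is compared. The members were chosen by the tissue they are known from and by their read counts in these lenses, and the peak of miR-122-5p in a single Na2SeO3 library was part of that choice, so the levels of all members are given as a description and miR-122-5p is given without a test.

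The libraries came from the lens capsules of 6 Sprague-Dawley rat pups, 1 lens per animal, with 3 animals in the control group, which received saline, and 3 in the Na2SeO3 group, which received sodium selenite at 20 μmol/kg. Both groups were injected under the skin on days 3, 5 and 7, which the labels do not define as days of age or of the experiment. Selenite given to young rats clouds the lens within days, so the model is of a rapid nuclear cataract and not of a slow age-related one, and no allele or transgene is involved. The capsule is the basement membrane around the lens and carries its epithelium, and a dissected capsule can hold attached cells of other tissues. In such bulk samples, fewer cells of a type and less RNA per cell cannot be told apart. Counts summed to 1806596 to 2829903 in the control libraries and to 663096 to 968151 in the Na2SeO3 libraries. A name had to reach 1.06 to 1.66 CPM, the count scaled to the library total, in the control group, or 3.10 to 4.52 CPM in the Na2SeO3 group, to hold 3 counts, which was taken as the floor. Reads carried no molecular identifiers and are not independent molecules, so the intervals and floors given here cover counting error alone.

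A miRNA is cut from a hairpin precursor, which has a 5p and a 3p arm, and guides silencing of mRNAs that pair with its seed, bases 2 to 8. miR-122 is the dominant miRNA of hepatocytes, where it takes part in lipid metabolism, and it appears in blood plasma when the liver is injured. miR-192 and miR-194 are made together from shared precursors and are rich in the epithelium of the gut, in kidney and in liver. miR-375 is a miRNA of the pancreatic islet, where it restrains insulin secretion, and is also made in the pituitary and other neuroendocrine cells.

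The mature sequences of the main arms of miR-192, miR-194 and miR-375 show which reads can and cannot be told apart, and they are given from RefSeq, assembly GRCr8, with the seed in capitals, where all 8 names of the set were found. The sequence of miR-215 is added because it is the near copy of miR-192-5p.
rno-miR-192-5p: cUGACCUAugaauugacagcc
rno-miR-215: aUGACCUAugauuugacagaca
rno-miR-194-5p: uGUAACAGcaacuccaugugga
rno-miR-375-3p: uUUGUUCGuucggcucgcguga
The seed UGACCUA was shared by miR-192-5p and miR-215 and by no other of the 693 mature names in that table. Over the 21 bases compared from the 5′ end, miR-192-5p and miR-215 had 18 in common and differed by C1A, A12U and C20A, with the base of miR-192-5p first. The counts used here do not show whether reads of miR-215 were assigned to miR-192-5p. The seeds of miR-194-5p, GUAACAG, of miR-375-3p, UUGUUCG, and of miR-122-5p, GGAGUGU, belonged to no other mature name.

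In GRCr8 the hairpin of miR-192 lies at chr1:212994209-212994318 on the plus strand, with the hairpin Mir194-2 at chr1:212994024-212994108, 100 bases away, and both sit between the protein-coding genes Atg2a and Ehd1. A second copy of miR-194, Mir194-1 at chr13:99382716-99382798, lies 191 bases from Mir215 within the span of Iars2, a mitochondrial isoleucyl-tRNA synthetase gene. Both copies give the identical miR-194-5p, so its reads cannot be assigned to a locus. Mir375 lies at chr9:83906582-83906656 on the minus strand, where it overlaps the annotated span of Cryba2, which encodes a beta crystallin, a structural protein of the lens. Mir122 lies at chr18:61028817-61028901 inside a transcribed pseudogene and opposite Mir3591. The build behind the count table is not given in the sources used here, and these positions are those of the reference sequences.

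Reads of each hairpin came almost entirely from a single arm. miR-192-5p was counted 6295 times in all 6 libraries together and miR-192-3p 0 times, with a 95% Wilson upper limit of 0.0610% for the 3p share. For miR-375 the arm was the other one, with 2025 reads of miR-375-3p and 0 of miR-375-5p (Wilson upper limit 0.189%). miR-122-5p had 350 reads and miR-122-3p 0 (Wilson upper limit 1.09%). miR-194 was the only hairpin with reads of both arms. Its 5p arm had 1198 reads and its 3p arm 5, a share of 0.416% (95% Wilson interval 0.178% to 0.969%), found as 2 reads in control library 2 and 3 in Na2SeO3 library 3. Of these arms, miR-194-3p is annotated at Mir194-2 and not at Mir194-1. Thus 5 of the 8 names had a count, 3 had none, and 4 passed the filter on low counts.

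The order of abundance was miR-192-5p, miR-375-3p, miR-194-5p and miR-122-5p in 5 of the 6 libraries. In Na2SeO3 library 3 it was miR-192-5p, miR-122-5p, miR-194-5p and miR-375-3p. miR-192-5p stood clear of the other names in each library. miR-375-3p and miR-194-5p were separate in the control group and close together in the Na2SeO3 group, where their Wilson intervals overlapped in each of the 3 libraries. Names differ in how well they are captured in a library, so the order is one of reads.

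**Figure D1:**
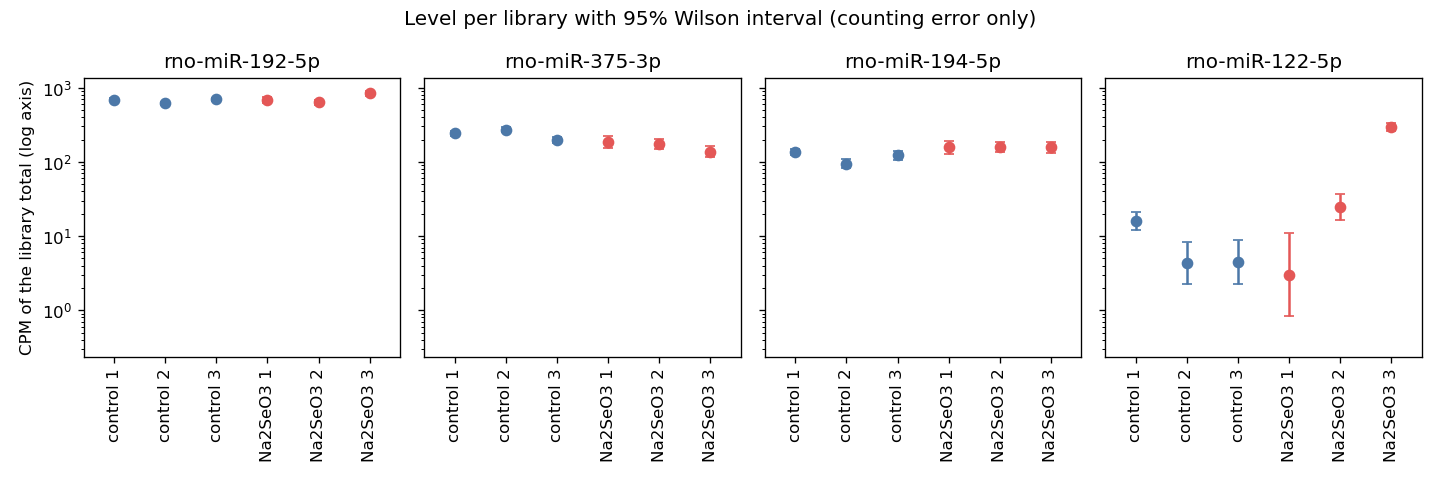
CPM of the library total (log axis) of the 4 counted miRNAs in each of the 6 libraries, with 95% Wilson intervals as bars. miR-192-5p, miR-375-3p and miR-194-5p lie in narrow bands, whereas miR-122-5p runs from 3.02 CPM in Na2SeO3 library 1 to 298 CPM in Na2SeO3 library 3.

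miR-192-5p was the most abundant member in each library. It was counted 1955, 1277 and 1255 times in control libraries 1 to 3, or 691, 615 and 695 CPM of the library total. In Na2SeO3 libraries 1 to 3 it was counted 457, 615 and 736 times, or 689, 635 and 838 CPM. The groups overlapped, and Na2SeO3 library 3 held the highest value. It ranked from 64th to 83rd among the 763 rat names, so that this gut and kidney miRNA was among the upper ranks of the lens capsule in every library. On the TMM scale, which adjusts the library totals so that most names do not change, the control group averaged 716 ± 83.6 CPM and the Na2SeO3 group 678 ± 126 CPM (SD, n = 3 each). The log2 fold change was -0.08 (standard error 0.18, 95% interval -0.46 to 0.30, Benjamini-Hochberg adjusted p = 0.781 over 341 names, quasi-likelihood test of edgeR). Its sign turned positive with the library size as the only scale, at 0.11, without control library 3, at 0.02, and without Na2SeO3 library 2, at 0.05.

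miR-194-5p, the cluster partner of miR-192, was counted 387, 195 and 221 times in control libraries 1 to 3, or 137, 93.9 and 122.3 CPM of the library total. In Na2SeO3 libraries 1 to 3 it was counted 104, 153 and 138 times, or 157, 158 and 157 CPM. On this scale each Na2SeO3 library lay above each control library. Non-overlap of the groups, in either direction, was counted over all names only on the TMM scale, where it held for 46.3% of those tested. After TMM scaling the groups overlapped, with 126 ± 22.1 CPM in control and 147 ± 7.34 CPM in Na2SeO3 libraries (SD, n = 3 each). The log2 fold change of 0.23 did not pass (standard error 0.18, 95% interval -0.17 to 0.62, adjusted p = 0.381, edgeR). With the library size as the only scale it was 0.42 (adjusted p = 0.0906, edgeR), while the median log2 fold change of all names tested moved from 0.08 to 0.27. Without control library 2, its lowest library, it was 0.09 (adjusted p = 0.728, edgeR), and it lay between 0.09 and 0.33 with single libraries left out.

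Because a ratio of names within a library needs no scaling, miR-192-5p was also set against miR-194-5p. There were 5.05, 6.55 and 5.68 reads of miR-192-5p per read of miR-194-5p in control libraries 1 to 3 and 4.39, 4.02 and 5.33 in Na2SeO3 libraries 1 to 3. The highest Na2SeO3 library lay above the lowest control library, so the groups overlapped. The means were 5.76 ± 0.75 and 4.58 ± 0.68 (SD, n = 3 each), a difference of -0.33 in the mean log2 ratio (two-sided exact permutation test, p = 0.2, where 3 libraries against 3 cannot go below 0.1). Reads of miR-194-5p come from 2 loci and those of miR-192-5p from 1, so the ratio is not that of a single precursor.

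miR-375-3p, the islet miRNA, was lower in the Na2SeO3 group. It was counted 691, 566 and 356 times in control libraries 1 to 3, or 244, 273 and 197 CPM of the library total. In Na2SeO3 libraries 1 to 3 it was counted 123, 168 and 121 times, or 185, 174 and 138 CPM. Each Na2SeO3 library lay below each control library, although control library 3 and Na2SeO3 library 1 were close. On the TMM scale the mean went from 254 ± 33.9 to 155 ± 23.1 CPM (SD, n = 3 each), again without overlap, as was the case for 46.3% of all names tested. The log2 fold change was -0.72 (standard error 0.18, 95% interval -1.11 to -0.33, adjusted p = 0.00815, edgeR), which passed the adjusted p-value of 0.05 but not the absolute log2 fold change of 1 that the study's methods also ask for. An adjusted p-value of 0.05 alone was passed by 34.6% of all names tested, and by 13.8% with a fall. A log2 fold change as low as that of miR-375-3p or lower was found in 37 names, or 10.9%. Without control library 2, its highest library, the log2 fold change was -0.60 and the adjusted p rose to 0.0552 (edgeR).

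Against miR-194-5p and miR-192-5p, miR-375-3p was lower as well, in ratios chosen after their values were seen. There were 1.79, 2.90 and 1.61 reads of miR-375-3p per read of miR-194-5p in control libraries 1 to 3, and 1.18, 1.10 and 0.877 in Na2SeO3 libraries 1 to 3. The mean ratio was 2.10 ± 0.70 in the control group and 1.05 ± 0.16 in the Na2SeO3 group (SD, n = 3 each), without overlap (exact permutation test, two-sided, p = 0.1, which is the lowest value possible, and 0.15 adjusted over 3 ratios). Per read of miR-192-5p the means were 0.360 ± 0.080 and 0.236 ± 0.062 (SD, n = 3 each), and the closest libraries, 0.284 in control library 3 and 0.273 in Na2SeO3 library 2, were nearly equal (exact permutation test, p = 0.1, adjusted 0.15).

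**Figure D2:**
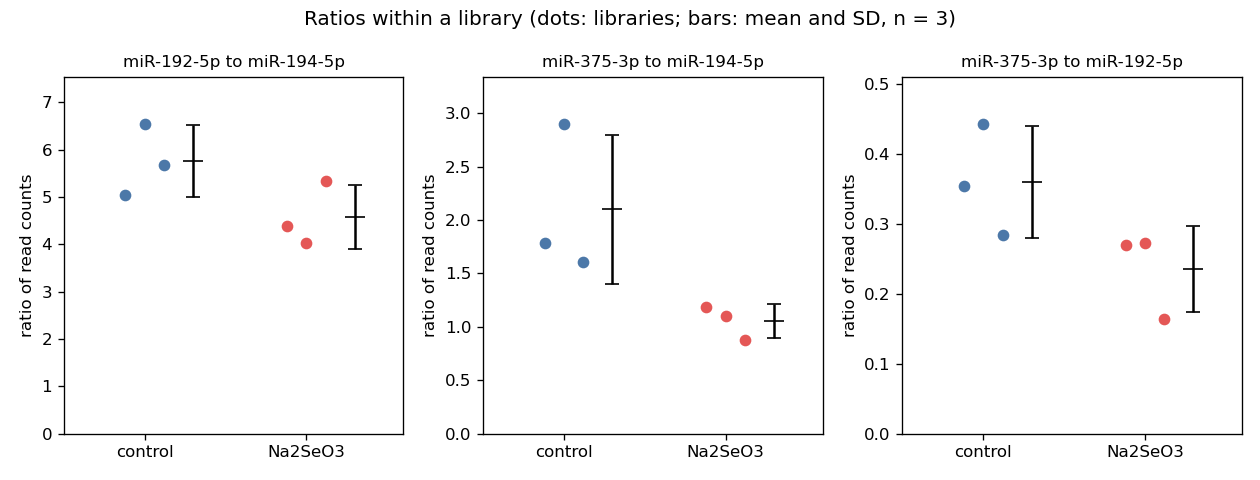
Ratio of read counts between members within each library (dots, libraries 1 to 3 of a group from left to right), with mean and SD (bars, n = 3) for the control and Na2SeO3 groups. The ratio of miR-375-3p to miR-194-5p lies between 1.61 and 2.90 in the control libraries and between 0.877 and 1.18 in the Na2SeO3 libraries, whereas the ratio of miR-192-5p to miR-194-5p overlaps between the groups.

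miR-122-5p, the hepatocyte miRNA, was scarce in 5 libraries and abundant in the sixth. It was counted 45, 9 and 8 times in control libraries 1 to 3, or 15.9, 4.34 and 4.43 CPM of the library total. In Na2SeO3 libraries 1 to 3 it was counted 2, 24 and 262 times, or 3.02, 24.8 and 298 CPM, with 95% Wilson intervals of 0.827 to 11.0, 16.7 to 36.9 and 264 to 337 CPM. The groups overlapped, and the 2 reads of Na2SeO3 library 1, below the floor of 3, could not be told apart from the levels of control libraries 2 and 3. Among the rat names it ranked 107th in Na2SeO3 library 3 and between 263rd and 376th in the other libraries. Na2SeO3 library 3 alone held 74.9% of its 350 reads.

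On the TMM scale Na2SeO3 library 3 stood 13.2 times above Na2SeO3 library 2, the next highest. Over the 341 names tested the highest library stood a median of 1.12 times above the next, the 95th percentile was 1.53, and the largest value after miR-122-5p was 2.32. The control libraries also differed among themselves, the highest standing 3.34 times above the lowest. Na2SeO3 library 3 was the highest library for 57 of the 341 names, but miR-122-5p was the only name in which it exceeded the next by at least 2 times. miR-122-5p was chosen in part for this peak, so its place above the other names follows from the choice and is only a description. The coefficient of variation of miR-122-5p over the 6 libraries, which this peak sets, was 202%. It was 14.1% for miR-192-5p, 13.8% for miR-194-5p, 29.4% for miR-375-3p and a median of 24.9% over all names tested.

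**Figure D3:**
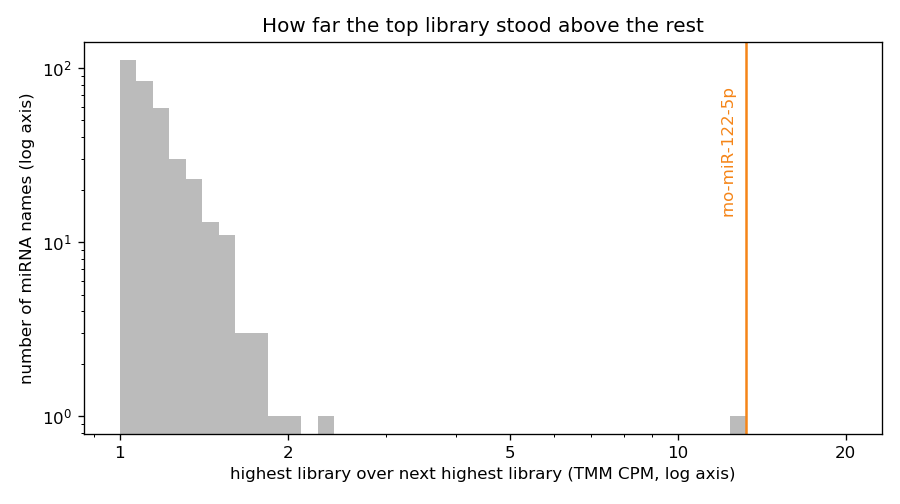
Number of miRNA names (log axis) by the ratio of their highest library to the next highest (TMM CPM, log axis), for the 341 names tested. miR-122-5p, marked by the line, lies at 13.2, and the other 340 names lie at or below 2.32. miR-122-5p was chosen in part for this peak.

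On the TMM scale miR-122-5p averaged 8.46 ± 6.14 CPM in control and 104 ± 160 CPM in Na2SeO3 libraries (SD, n = 3 each), so the SD of the Na2SeO3 group exceeded its mean. With Na2SeO3 library 3 set aside, the mean of the other Na2SeO3 libraries was 12.3 CPM. The fitted log2 fold change was 3.52 with all libraries and 0.55 without Na2SeO3 library 3. The groups overlapped, and no test is given for it.

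Over the whole table, both thresholds were passed by 56 of 341 names (16.4%), 39 higher (11.4%) and 17 lower (4.99%) in the Na2SeO3 group. Among the 3 members given with a test, 0 passed both thresholds and 1, miR-375-3p, passed the adjusted p-value alone. Their median log2 fold change was -0.08, against 0.08 for all names tested. With DESeq2 the number past both thresholds was also 0, and the unadjusted p in edgeR was 0.00148 for miR-375-3p, 0.239 for miR-194-5p and 0.661 for miR-192-5p.

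**Figure D4:**
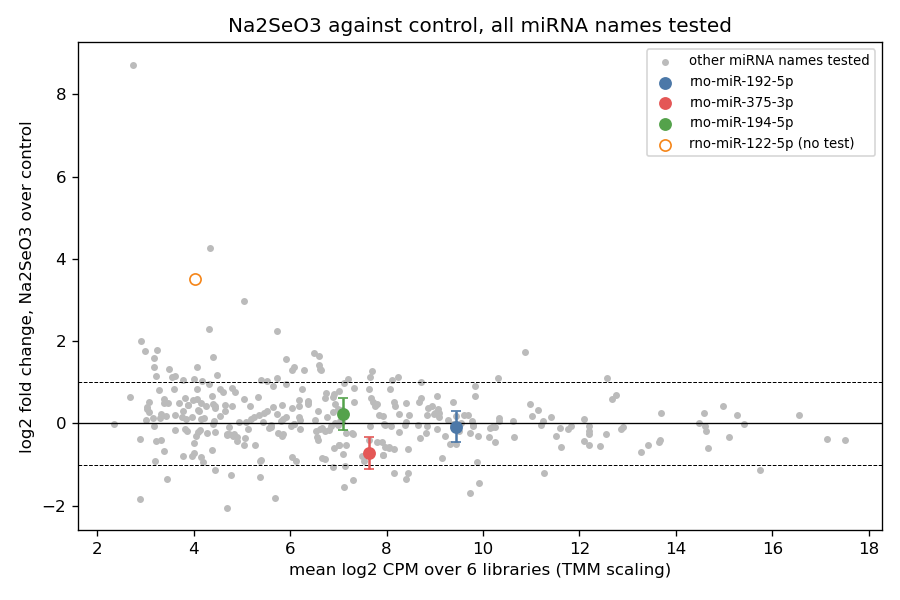
Log2 fold change of the Na2SeO3 over the control group against mean log2 CPM for the 341 names tested, with the members in colour and 95% intervals as bars. miR-192-5p and miR-194-5p lie at -0.08 and 0.23, miR-375-3p at -0.72, above the dashed line at -1, and miR-122-5p (open circle, no test) at 3.52.

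The names that followed each member most closely over the 6 libraries were found by Pearson's r of the log2 CPM, as a description over points that share the group difference and the scaling. For miR-375-3p these were miR-129-5p (r = 0.995), miR-100-5p (r = 0.976) and miR-10b-5p (r = 0.971), all more abundant than it, and miR-129-5p was counted 14578, 10626 and 7298 times in control libraries 1 to 3 and 2862, 4042 and 3131 times in Na2SeO3 libraries 1 to 3. For miR-192-5p they were let-7i-5p (r = 0.897), miR-148a-3p (r = 0.860) and miR-101b-3p (r = 0.830). For miR-194-5p they were miR-152-5p (r = 0.950), ppt-miR1049 (r = 0.912), a name of another species, and miR-434-5p (r = 0.877). For miR-122-5p they were let-7b-3p (r = 0.938), miR-3559-5p (r = 0.860) and miR-138-5p (r = 0.808). let-7b-3p was counted 35, 15 and 16 times in control libraries 1 to 3 and 7, 13 and 19 times in Na2SeO3 libraries 1 to 3, so it was also highest for its depth in Na2SeO3 library 3, but without a peak of that size. The cluster partners miR-192-5p and miR-194-5p were not among each other's closest names (r = 0.29), and miR-122-5p stood at r = 0.30 with miR-192-5p and -0.70 with miR-375-3p.

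Further miRNAs of liver, gut and pancreas gave a mixed picture. Both arms of miR-802, a miRNA of hepatocytes and islets, were at or near 0, with 1 read in all and 0 reads in Na2SeO3 library 3. The rat name miR-122b had 0 reads. Of the 22 names on the list of other liver, gut and pancreas miRNAs, 16 had a count and 7 were tested. Past both thresholds 0 were higher and 1 lower, with a median log2 fold change of -0.69. Over all names tested, 11.4% were higher and 4.99% lower, with a median of 0.08. The list is dominated by miR-7a-5p, a miRNA of endocrine and neural cells, at 9722 to 13281 CPM in the control group and 7911 to 9226 CPM in the Na2SeO3 group. Its summed level was 10458 to 14096 CPM in the control group and 8387 to 9723 CPM in the Na2SeO3 group, and Na2SeO3 library 3 was the lowest of the 6. The name that passed was miR-7b, with a log2 fold change of -1.36. miR-200c-3p, an epithelial miRNA on the same list, stood at -0.78, close to miR-375-3p. On that list miR-216b-5p and miR-217-5p went the other way, at 1.06 and 0.50 (adjusted p = 0.0680 and 0.287, edgeR), so its names did not fall together.

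Markers of other cell types were summed in the same way, since the lens has no vessels and such miRNAs can enter with blood or attached tissue. Over all names tested, 16.4% were called, 11.4% higher and 4.99% lower, and counts of 0 or 1 are not read as results about a list. The blood list, of which miR-451-3p was at 0, summed to 219 to 285 CPM in the control group and 418 to 537 CPM in the Na2SeO3 group, with 1 of 3 tested names, miR-486, higher and a median log2 fold change of 0.41. Na2SeO3 library 3, in which miR-122-5p peaked, had a blood sum of 418 CPM, the lowest of its group and above each control library. In it miR-486 stood at 279 CPM, against 114 to 149 CPM in the control group. There miR-144-5p was at 10.3 CPM, but from only 9 reads, against 3.87 to 7.77 CPM in the control group. Na2SeO3 library 2 had 8 reads of miR-144-5p, or 8.26 CPM. The miR-451-5p of Na2SeO3 library 3, at 128 CPM, lay within the control range of 100 to 131 CPM. The part of blood in the peak of miR-122-5p was not tested. The 8 leukocyte names summed to 152 to 184 CPM and 137 to 196 CPM, with 0 of 5 called and a median of -0.13. The 14 muscle names, 4 of them at 0, summed to 6987 to 8208 CPM and 14995 to 15370 CPM, with 1 of 6 called, miR-206-3p, higher with a log2 fold change of 1.75, and a median of 0.68. The 12 neural names summed to 30659 to 32291 CPM and 42392 to 48703 CPM, with 1 of 6 called, miR-219a-2-3p, higher with a log2 fold change of 4.26, and a median of 0.10. Most of the neural sum was miR-9a-5p, at 24859 to 27517 CPM and 35222 to 44024 CPM, while miR-124-3p and miR-128-3p had log2 fold changes of -0.12 and 0.06. The 13 germ cell and embryo names, 7 of them at 0, summed to at most 16.6 CPM in any library, and 0 were tested. The 10 lens and eye names summed to 243933 to 263112 CPM and 246379 to 270776 CPM, with 1 of 9 called, the lens miRNA miR-184, lower with a log2 fold change of -1.13, and a median of -0.19. miR-184 stood at 72523 to 79842 CPM in the control group and 36090 to 42335 CPM in the Na2SeO3 group, and much of the sum was miR-182, of a sensory cluster that is also strong in the retina, at 71398 to 114496 CPM over the 6 libraries. As CPM of the library total, the blood, muscle and neural sums were higher in the Na2SeO3 group, without overlap. The sum of other liver, gut and pancreas names was lower in it, also without overlap. These sums were not put on the TMM scale, on which the groups did not overlap for 46.3% of single names. The part of these lists in the fall of miR-375-3p was not tested.

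**Figure D5:**
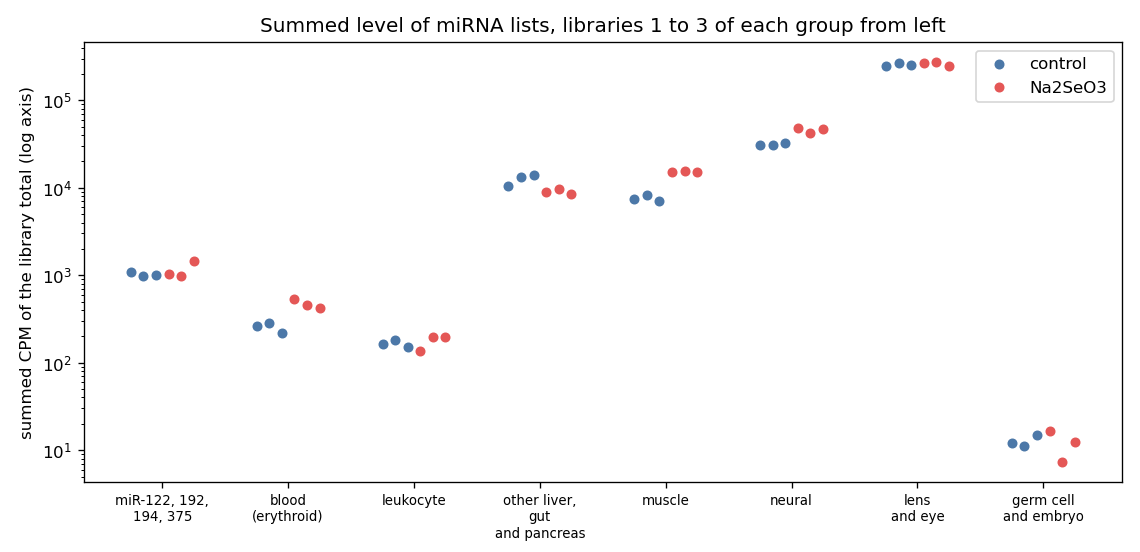
Summed CPM of the library total (log axis) for the members and 7 marker lists, with libraries 1 to 3 of each group from left to right. The members sum to 987 to 1088 CPM in the control libraries and to 992 to 1435 CPM in the Na2SeO3 libraries, with Na2SeO3 library 3 the highest.

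The 8 names together made up 1088, 987 and 1018 CPM of control libraries 1 to 3 and 1035, 992 and 1435 CPM of Na2SeO3 libraries 1 to 3. The high value of Na2SeO3 library 3 came with its 298 CPM of miR-122-5p and 838 CPM of miR-192-5p, against 3.02 and 689 CPM in Na2SeO3 library 1. In that library miR-194-5p was at 157 CPM, as in the other Na2SeO3 libraries, and miR-375-3p was at its lowest, so the members did not rise there together.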

How the data were processed

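Cutadapt and Fqtrim were used by the authors for trimming and FastQC for quality. They compared the reads with the Ensembl rat genome by miRDeep and deposited read counts per miRNA name for 6 libraries, without normalization. The genome build and the tool versions are not given in the sources used here. Counts say what share of the counted miRNA reads a name took, not how much a lens held.

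The counts were filtered with filterByExpr (minimum count 10), scaled with TMM, and compared with edgeR's quasi-likelihood test over 341 names, with thresholds of 0.05 on the adjusted p-value and 1 on the absolute log2 fold change. Log2 CPM used a prior count of 2. Ratios used two-sided exact permutation tests. The procedure was tested on simulated data. Alternatives were other scalings, filters, DESeq2, rat names only, a replicate block and leaving out each library. The chi-square per degree of freedom of any pair of libraries was at least 28.0, so no library was a copy of another. Members, lists and tests were chosen with earlier results of these data known. Named were all members, the 3 names most correlated with each, and up to 3 abundant names per list; miR-451-3p, miR-219a-2-3p, miR-802, miR-122b and the further ratios were named after their values were seen. Tools were R 4.3.3, edgeR 4.0.16, DESeq2 1.42.0 and Python 3.11.15 with scipy 1.17.1.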

Additional observations from a re-analysis of the deposited data

How the results depend on the processing

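With the adjusted p-value alone, 118 names passed in place of 56, and 1 of the 3 members given with a test in place of 0 (miR-122-5p is left out of the member counts but not of the totals). The other scalings, filters, DESeq2, the rat names and the omission of each library gave 42 to 63 names past both thresholds and 0 of the 3 tested members, where the omission of single libraries gave 45 to 62. The log2 fold change of miR-192-5p turned positive with the library size only (0.11), without control library 3 (0.02) and without Na2SeO3 library 2 (0.049), and ranged from -0.23 to 0.05 with each library left out; the cause was not tested. That of miR-375-3p stayed between -0.86 and -0.53, and its adjusted p in edgeR or DESeq2 passed 0.05 in 13 of 14 alternatives, the exception being the omission of control library 2 (0.0552). The log2 fold change of miR-122-5p ranged from 0.55 to 4.39 with each library left out. With 10 counts required in every library it could not be fitted. The ratio of miR-192-5p to miR-194-5p kept its direction, with a log2 difference of -0.45 to -0.24 with each library left out. For miR-375-3p this difference was -1.12 to -0.70 against miR-194-5p and -0.79 to -0.39 against miR-192-5p, weakest for the latter without Na2SeO3 library 3. No ratio of arms was tested, since no hairpin had 10 counts of both arms in every library. The groups share replicate numbers, but libraries of the same number deviated from their group means with correlations of -0.17, -0.18 and -0.26 over 341 names, so the numbers did not pair the libraries. With the replicate block, 49 names and 0 members passed both thresholds, miR-375-3p had an adjusted p of 0.0160 in edgeR, and the log2 ratio of miR-192-5p to miR-194-5p, whose mean difference of -0.33 pairing cannot alter, gave p = 0.25 (exact paired test), the smallest possible. The smaller totals of the Na2SeO3 libraries set their higher floors, and 2 reads of miR-122-5p in Na2SeO3 library 1 are below the floor of 3.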
